A study of Mus musculus with 6 samples.

Results

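Rows of the 35 genes of the nuclear factor kappaB (NF-kappaB) pathway were read from the 6 per-library count files, by symbol, and all 35 were present among 23183 gene symbols. They encode the subunits of the transcription factor, the proteins that hold it back or release it, the TRAF adaptors and a few well-known target genes. Splenic naive CD4+ T cells of wild-type C57BL/6N mice were driven towards the T helper 9 (Th9) fate with 2 antibodies that activate T cells, plate-bound anti-CD3e and soluble anti-CD28, each at 1 µg/ml. The medium of both groups also held the cytokines TGF-β1 at 2 ng/ml and IL-4 at 10 ng/ml, and an anti-IFN-γ antibody at 10 µg/ml. The 3 control libraries came from cells without SPC, and the 3 SPC libraries from cells that also received 30 µM sphingosylphosphorylcholine (SPC, d18:1), a lysophospholipid. All were taken on day 3, and the libraries of each group are numbered 1 to 3. The series describes 3 separate experiments. No age or sex of the mice, and no pooling of animals, is given in the sources read here.

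NF-kappaB is a family of dimeric transcription factors kept inactive in resting cells. In the canonical pathway, signals from the T cell receptor or from cytokine receptors reach the IkappaB kinase complex, which marks IkappaB inhibitors for degradation and frees dimers of p50 (from Nfkb1), RelA and c-Rel. In the noncanonical pathway, receptors of the TNF receptor superfamily stabilise the kinase NIK, p100 (from Nfkb2) is processed to p52, and p52 acts with RelB. Many inhibitors and adaptors of the pathway are themselves induced by NF-kappaB. The counts read here give RNA levels, and the activity of the pathway was not measured.

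The 6 libraries held between 22002050 and 33049997 counts. The first principal component of log2 expression (39.7% of the variance) did not separate the groups, and the second (28.3%) did. T cell markers were high, with a sum over 8 genes of 1841 to 1960 CPM (counts scaled to library size with TMM, a trimmed mean of M values) in control and 1789 to 2016 CPM in SPC libraries. Il9, the Th9 cytokine gene, stood at 538 ± 18.8 CPM without SPC and 1137 ± 238 CPM with it (SD, n = 3 each). The 6 Th9 markers, Il9 among them, summed to 2510 to 2581 CPM in control and 3114 to 3674 CPM in SPC libraries. Single Th9 markers went both ways. B cells and dendritic cells express several NF-kappaB genes strongly, so their markers were read as well. Of the B cell markers, Ms4a1 was at 0 counts in all 6 libraries, Pax5 averaged 0.0111 CPM without SPC and 0 CPM with it, and Cd79b averaged 3.32 ± 0.0995 and 4.09 ± 0.494 CPM. The 6 dendritic cell markers summed to 2.63 to 3.68 CPM without SPC and 4.16 to 6.34 CPM in SPC libraries, mostly from Zbtb46, with Clec9a at 0 in all 6. The 5 macrophage and monocyte markers went the other way, with 0.513 to 0.863 CPM without SPC and 0.230 to 0.486 CPM in SPC libraries. The 5 CD8 T and NK cell markers summed to at most 2.61 CPM in any library. Cd79b and the dendritic cell and macrophage sums moved with the groups, and their part in the results was not tested. Spi1, which encodes the Th9-associated factor PU.1, averaged 0.0335 CPM without SPC and 0.0246 CPM with it and was too low to test.

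With SPC, the noncanonical subunit gene Nfkb2 rose 1.38-fold and the TRAF adaptor gene Traf1 rose 1.66-fold, and both passed the test with group alone. The canonical subunit genes Nfkb1, Rela and Rel differed by 1.03-fold, 1.07-fold and 1.23-fold and did not pass it. Neither did the noncanonical subunit gene Relb (1.23-fold) or the canonical inhibitor gene Nfkbia (1.37-fold). Of the 35 genes, all of which passed the filter on low counts, 2 were called higher and 0 lower in the edgeR test with group as its term (adjusted p under 0.05), where 0.483% of 12226 tested genes were called, 0.327% higher and 0.155% lower. At an unadjusted p under 0.05, 12 were higher and 1 lower, against 5.86% and 4.37% of all tested genes. With the library number as a block, which compares same-numbered libraries, 10 were called higher and 1 lower, against 4.02% and 3.07% of all tested genes (7.08% in both directions). Under DESeq2, 6 of the 35 were called against 2.31% of all tested genes, and with no filter on low counts 5 against 0.875%. The 10 higher genes of the blocked test were Nfkb2, Relb, Nfkbia, Nfkbid, Tnfaip3, Tnip1, Traf1, Ikbke, Icam1 and Cflar, and the lower gene was Tnip3. The median log2 fold change (SPC over control) over the 35 was 0.11, with 27 above 0, against a median of 0.00193 and 50.5% above 0 over all tested genes. In bulk RNA, a change in the number of cells that express a gene and a change of its RNA per cell cannot be told apart.

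**Figure D1:**
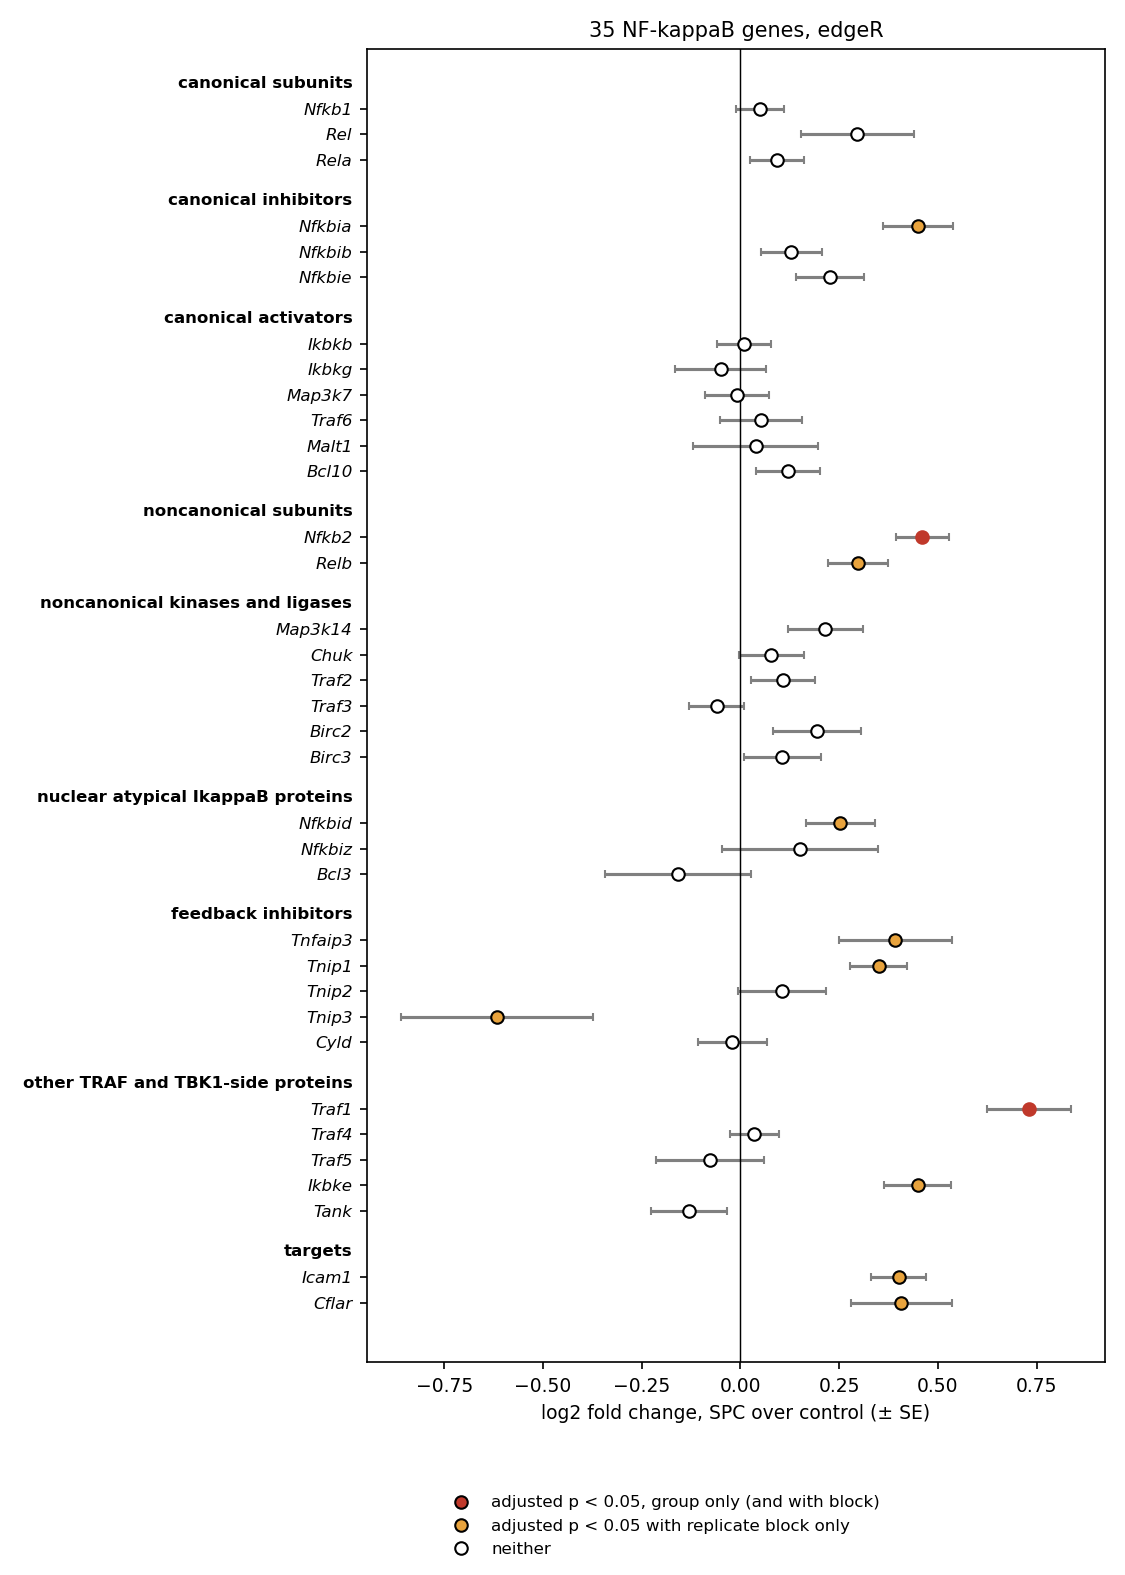
Log2 fold change of SPC over control (horizontal axis, ± SE of the edgeR fit, 3 libraries a group) for the 35 genes, grouped by role. Red points passed the test with group alone, orange points passed it with the library number as a block, and white points passed neither; Traf1 stands farthest to the right at 0.73 and Tnip3 farthest to the left at -0.62.

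Promoter sequence was read from RefSeq for the same genome assembly (GRCm38.p6, the assembly that mm10 names), over the 250 bases before each annotated start. Windows were found for 30 of the 35 genes, 42 windows in all. Nfkb1, Relb, Nfkbiz, Ikbkb and Malt1 had no entry. The kappaB consensus decamer was searched in its usual degenerate form, GGGRNNYYCC (R: A or G, Y: C or T, N: any base). Both strands were read, and overlapping matches were allowed. The consensus was present for 13 of the 30 genes (43.3%), and for 8.23% of all 27025 genes with a window. By window it was found in 18 of 42, against 7.25% of all 32851 windows. TATAAA, searched for comparison, was present for 4 of the 30 genes (13.3%) and 14.3% of all genes. Among the 11 genes called with the block, 10 had a window and 6 a consensus match. These 6 were Nfkbia, Nfkb2, Nfkbid, Tnfaip3, Tnip1 and Tnip3, of which Tnip3 was called lower with SPC. Among the other 24, 20 had a window and 7 a match. A match describes the letters of the window only.

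Of the genes called with the block that had a window, Nfkbia, Tnip1, Tnip3, Nfkbid, Traf1, Icam1 and Cflar had no annotated exon in any window. The windows of Nfkbia, Tnip1, Traf1 and Icam1 are shown as examples, and these 4 differ in whether the consensus is present. Each is written 5′ to 3′ on the strand of the gene, 250 bases that end at base -1, the base before the start, with consensus matches in capitals.
Nfkbia, chr12:55492648-55492897, minus strand: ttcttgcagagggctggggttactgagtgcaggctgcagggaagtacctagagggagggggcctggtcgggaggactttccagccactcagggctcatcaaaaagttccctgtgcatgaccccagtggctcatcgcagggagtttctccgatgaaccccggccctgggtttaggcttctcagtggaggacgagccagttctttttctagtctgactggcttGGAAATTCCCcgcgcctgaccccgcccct
Tnip1, chr11:54962941-54963190, minus strand: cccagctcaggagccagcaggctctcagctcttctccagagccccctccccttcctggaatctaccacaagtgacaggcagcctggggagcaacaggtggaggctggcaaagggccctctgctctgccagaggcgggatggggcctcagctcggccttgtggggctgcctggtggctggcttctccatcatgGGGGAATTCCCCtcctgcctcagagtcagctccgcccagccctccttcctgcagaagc
Traf1, chr2:34961773-34962022, minus strand: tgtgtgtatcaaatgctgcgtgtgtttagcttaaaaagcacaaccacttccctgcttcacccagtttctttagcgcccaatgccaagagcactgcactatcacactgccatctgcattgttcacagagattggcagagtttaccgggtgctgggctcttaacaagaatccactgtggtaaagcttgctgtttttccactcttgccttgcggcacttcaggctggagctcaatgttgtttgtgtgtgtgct
Icam1, chr9:21015690-21015939, plus strand: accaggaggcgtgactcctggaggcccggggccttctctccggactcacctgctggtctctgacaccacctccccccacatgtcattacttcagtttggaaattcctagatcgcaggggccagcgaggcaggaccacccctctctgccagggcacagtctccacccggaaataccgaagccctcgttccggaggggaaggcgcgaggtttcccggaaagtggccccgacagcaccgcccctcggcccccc
In the Nfkbia window the match spans bases -29 to -20 and reads GGGAATTTCC on the opposite strand. The Tnip1 window holds a run of overlapping matches between bases -58 and -47. The windows of Traf1 and Icam1 hold no full match to the consensus. Near matches were not counted, and TGGAAATTCC in the Icam1 window misses the consensus at its first letter. For Nfkb2, the first of 3 windows lies inside an annotated exon and holds GGGAATTCCC at bases -39 to -30 and GGGGCTTTCC at bases -11 to -2.

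In the canonical part, the 3 subunit genes gave values that the test did not separate. Nfkb1, whose product p105 is the precursor of p50, stood at 859, 874 and 849 CPM in the control libraries 1, 2 and 3 and at 888, 916 and 868 CPM in the SPC libraries. The groups overlapped, and the log2 fold change was 0.05 ± 0.06 (adjusted p = 0.862 unblocked, 0.592 blocked). Rela, the gene of the main transactivating subunit, had 87.3, 82.2 and 79.2 CPM without SPC and 88.9, 89.6 and 86.6 CPM with it (0.09 ± 0.07, adjusted p = 0.732 unblocked, 0.376 blocked). Rel encodes c-Rel, the subunit most tied to lymphocyte activation, and had 76.9, 81.9 and 86.7 CPM without SPC and 76.2, 112 and 114 CPM with it. SPC library 1 lay below all 3 control libraries while the other 2 SPC libraries lay above them (0.30 ± 0.14, adjusted p = 0.550 unblocked, 0.0759 blocked). With 1 library left out in turn its adjusted p lay between 0.0429 and 0.982, and it was under 0.05 only without SPC library 1.

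The inhibitor genes of the canonical part were higher in each of the 3 same-numbered pairs. Nfkbia encodes IkappaBα, the inhibitor that is degraded and then resynthesised first, and lies on chromosome 12 (55489410 to 55492647, minus strand). Its level was 225, 211 and 218 CPM without SPC and 337, 282 and 275 CPM with it, with no overlap (1.37-fold, log2 fold change 0.45 ± 0.09). It missed the threshold with group alone (adjusted p = 0.0730) and passed it with the block (0.00117). Nfkbie, the gene of IkappaBε, had 27.6, 26.3 and 23.8 CPM without SPC and 31.5, 30.0 and 29.4 CPM with it (0.23 ± 0.09, adjusted p = 0.392 unblocked, 0.0826 blocked). Nfkbib, the gene of IkappaBβ, had 54.3 to 55.8 CPM without SPC and 56.2 to 64.9 CPM with it (0.13 ± 0.08, adjusted p = 0.662 unblocked, 0.310 blocked). In all, 16.4% of the exonic bases of Nfkbib lie in exons of Sirt2 or Ccer2 on the opposite strand, and Sirt2 had 63.1 ± 0.316 CPM without SPC and 58.4 ± 6.83 CPM with it. If the counting ignored strand, the reads of such partners cannot be told apart.

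None of the 6 activator genes of the canonical part passed either test, and their log2 fold changes lay between -0.05 and 0.12. Ikbkb and Ikbkg encode the catalytic β and the regulatory γ (NEMO) subunits of the IkappaB kinase complex. Ikbkb had 86.6, 86.1 and 87.7 CPM without SPC and 91.7, 83.4 and 86.8 CPM with it (0.01 ± 0.07, adjusted p = 0.984), and Ikbkg had 41.7 to 42.9 CPM without SPC and 33.9 to 47.1 CPM with it. Malt1, the paracaspase that with Bcl10 relays the T cell receptor signal, had 366, 391 and 423 CPM without SPC and 294, 448 and 470.0 CPM with it. SPC library 1 was again the lowest and the other 2 SPC libraries the highest of the 6 (0.04 ± 0.16, adjusted p = 0.967). Traf6, a ubiquitin ligase of the same relay, showed the same order, with 251 to 271 CPM without SPC and 226, 288 and 295 CPM with it (0.05 ± 0.10, adjusted p = 0.921). Bcl10 had 38.8 to 39.1 CPM without SPC and 38.7, 43.4 and 45.0 CPM with it (0.12 ± 0.08, adjusted p = 0.703). Map3k7, the gene of the kinase TAK1, averaged 147 CPM in both groups (-0.01 ± 0.08, adjusted p = 0.987).

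In the noncanonical part, Nfkb2 was called with and without the block. The gene lies on chromosome 19 (46304320 to 46312385, plus strand) and encodes p100, at once an inhibitor and the precursor of p52. Nfkb2 stood at 429, 429 and 421 CPM in the control libraries and at 574, 563 and 623 CPM in the SPC libraries. The groups did not overlap, and the 3 controls lay closer together than the 3 SPC libraries. The mean went from 426 ± 4.73 to 587 ± 31.9 CPM (SD, n = 3 each), a log2 fold change of 0.46 ± 0.07 (adjusted p = 0.0358 unblocked, 0.000513 blocked). With 1 library left out in turn the adjusted p lay between 0.0392 and 0.219, and it stayed under 0.05 only without SPC library 1. Of the exonic bases of Nfkb2, 18.1% lie in exons of Psd or another gene on the opposite strand, and Psd had 10.8 ± 2.15 CPM without SPC and 16.9 ± 3.99 CPM with it (adjusted p = 0.247 unblocked, 0.00596 blocked). Its part in the counts of Nfkb2 was not tested.

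Relb, the partner subunit of p52, lies on chromosome 7 (19606217 to 19629438, minus strand). Relb had 55.9, 56.4 and 60.1 CPM without SPC and 72.8, 65.9 and 73.1 CPM with it, again without overlap. The rise of 1.23-fold (log2 fold change 0.30 ± 0.08) passed the test with the block (adjusted p = 0.0151) and not without it (0.163). Map3k14 encodes NIK, the kinase that starts p100 processing, and had 39.9, 40.3 and 46.9 CPM without SPC and 45.4, 49.0 and 53.0 CPM with it. It was higher in all 3 pairs, but the groups overlapped (0.22 ± 0.09, adjusted p = 0.487 unblocked, 0.0775 blocked). Traf2, Traf3, Birc2 and Birc3 encode the ubiquitin ligase complex that degrades NIK in unstimulated cells, and none was called in either test. Their log2 fold changes were 0.11 ± 0.08, -0.06 ± 0.07, 0.19 ± 0.11 and 0.11 ± 0.10. Traf3, the adaptor that brings NIK to the complex, averaged 109.7 ± 3.99 CPM without SPC and 105 ± 5.10 CPM with it. Birc2 and Birc3 are neighbouring paralogs on chromosome 9, and 2.07% of the 50-base windows of the longest Birc2 transcript occur in a transcript of another gene, Birc3 among them. Chuk, the gene of the kinase IKKα that phosphorylates p100, had 95.8, 97.5 and 94.8 CPM without SPC and 90.3, 107 and 107 CPM with it (0.08 ± 0.08, adjusted p = 0.835).

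Read apart, the 12 genes of the canonical part had a median log2 fold change of 0.07, with 10 above 0, and the 8 of the noncanonical part a median of 0.15, with 7 above 0. With the block and all libraries kept, 1 of the 12 canonical genes (Nfkbia) and 2 of the 8 noncanonical genes (Nfkb2 and Relb) were called. This fit called 7.08% of all tested genes, and the canonical share in it was near that. The groups did not overlap for 3 canonical and 2 noncanonical genes, all higher with SPC, against 8.67% of all tested genes with every SPC library above every control library and 7.8% with every one below. Without the libraries numbered 1, the medians were closer, at 0.134 for the canonical and 0.174 for the noncanonical part. The blocked test without them, on the pairs numbered 2 and 3, also called Rel, Rela, Nfkbie, Malt1, Traf6 and Bcl10 of the canonical part. It called Map3k14, Chuk, Birc2 and Birc3 of the noncanonical part as well, and 17.4% of 12135 tested genes. The difference between the parts was not tested.

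**Figure D2:**
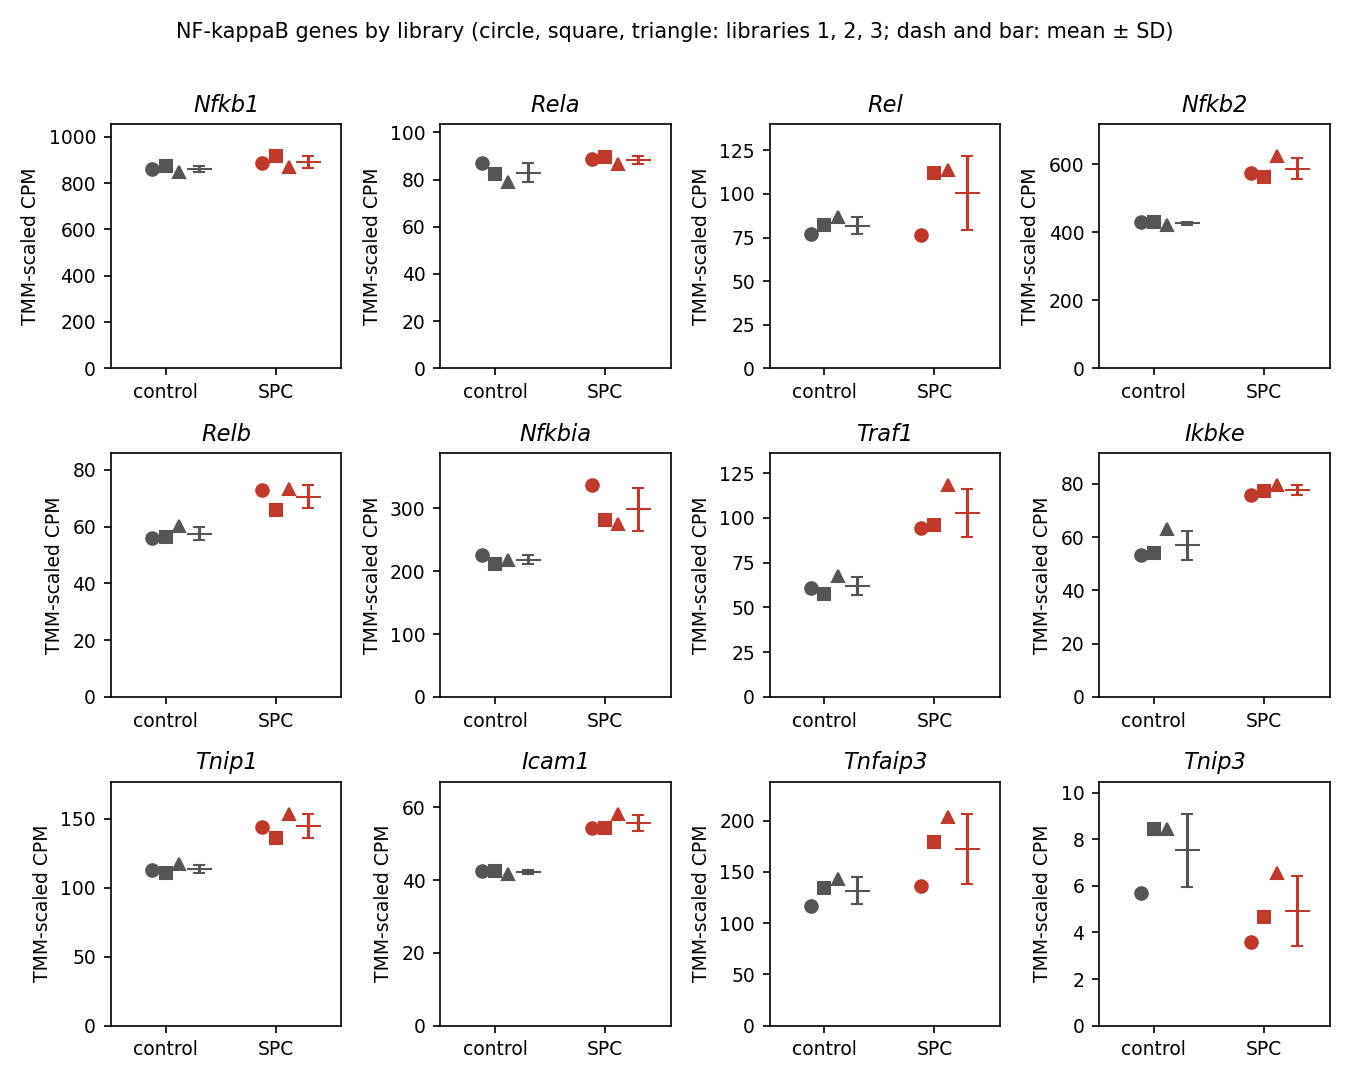
TMM-scaled CPM (vertical axis, from 0) of 12 NF-kappaB genes in each of the 6 libraries, with the mean ± SD beside each group of 3. For Nfkb2, Relb, Nfkbia, Traf1, Ikbke, Tnip1 and Icam1 the SPC libraries lie above the control libraries, whereas for Nfkb1, Rela, Rel, Tnfaip3 and Tnip3 the groups overlap.

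To compare levels between genes, TMM-scaled counts were divided by the exonic length of each gene (RPKM, all annotated exons joined). By this measure Nfkbia was the most abundant of the 35 in control cells at 136 ± 4.37, followed by Nfkb2 at 93.0 ± 1.03 and Nfkb1 at 71.4 ± 1.03, and these 3 did not overlap with their neighbours in the order. The other subunit genes were lower, with Rela at 27.0 ± 1.33, Relb at 14.8 ± 0.589 and Rel at 10.97 ± 0.660. Traf6 and Tnip1 (33.01 ± 1.26 and 32.1 ± 0.894) overlapped. From Rela at rank 7 to Malt1 at rank 12, through Nfkbid, Nfkbib, Birc3 and Map3k7, each gene overlapped with the next. Traf5 and Tnip3 were the lowest, at 2.05 ± 0.1004 and 0.690 ± 0.144. Genes with long alternative exons, such as Ikbkb (19078 exonic bases) and Malt1 (18040), are placed lower by this measure.

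Ratios of 2 subunit genes within a library do not depend on library scaling. The ratio of Nfkb2 to Nfkb1 per length was 1.31, 1.29 and 1.30 in the control libraries and 1.70, 1.62 and 1.89 in the SPC libraries. The 2 sets did not overlap, and the log2 ratio was higher with SPC by 0.41. In a two-sided exact permutation test this gave p = 0.10, the smallest that 3 against 3 allows (0.40 after Benjamini-Hochberg adjustment over 4 ratios). Relb to Rela was 0.507, 0.543 and 0.600 in control and 0.648, 0.582 and 0.667 with SPC, higher in all 3 same-numbered pairs but with overlap between the groups (exact permutation p = 0.20, adjusted 0.40). For Rel to Rela the control libraries gave 0.363, 0.410 and 0.451 and the SPC libraries 0.353, 0.514 and 0.539, so that SPC library 1 was the lowest of the 6 (exact permutation p = 0.50, adjusted 0.667). Relb to Rel differed by 0.02 on the log2 scale (exact permutation p = 1, adjusted 1), with SPC library 1 at 1.84 and the other 2 SPC libraries at 1.13 and 1.24. An exact sign-change test over the 3 pairs, added after seeing the data, cannot go below p = 0.25, and gave that value for Nfkb2 to Nfkb1 and for Relb to Rela, both higher in all 3 pairs.

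**Figure D3:**
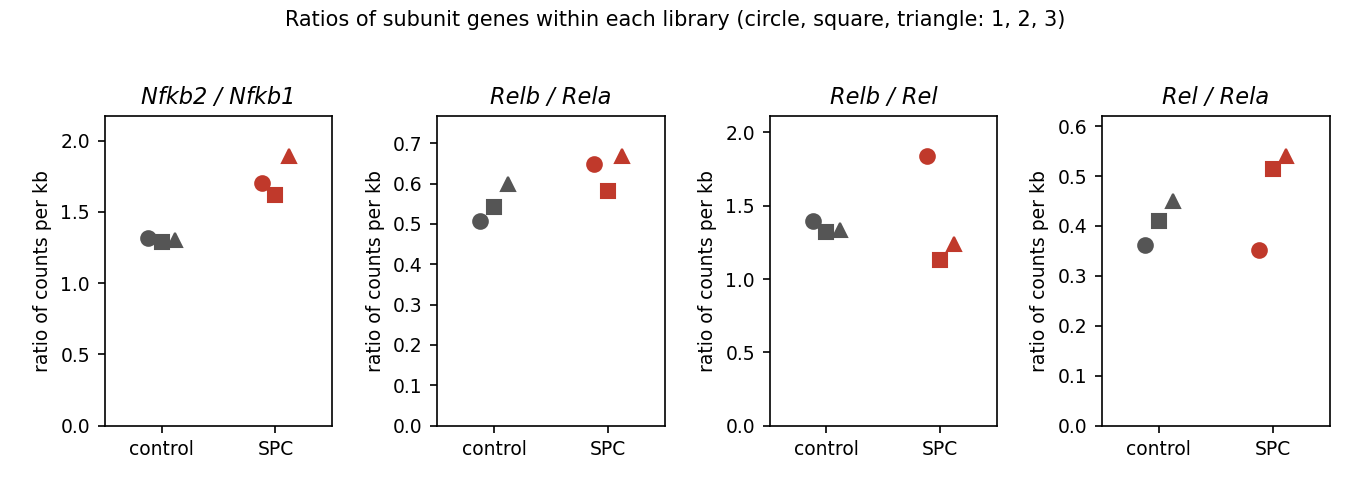
Ratio of counts per kilobase of exon between 2 subunit genes (vertical axis, from 0) in each library, 3 control and 3 SPC, with symbols for library numbers 1 to 3. The Nfkb2 to Nfkb1 ratio is the one of the 4 in which the groups do not overlap, from 1.29 to 1.31 for controls and from 1.62 to 1.89 for SPC.

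The nuclear IkappaB proteins bind NF-kappaB dimers on DNA and tune their target choice. Nfkbid, the gene of IkappaBNS, had 65.5, 58.9 and 57.3 CPM without SPC and 77.9, 71.6 and 67.1 CPM with it. The groups did not overlap, and the rise (log2 fold change 0.25 ± 0.09) passed the test with the block (adjusted p = 0.0249) but not without it (0.331). Nfkbiz, the gene of IkappaBζ, varied more between library numbers than between groups, with 24.7, 29.7 and 37.6 CPM without SPC and 25.6, 34.3 and 42.2 CPM with it (0.15 ± 0.20, adjusted p = 0.870 unblocked, 0.265 blocked). Bcl3, a nuclear partner of p50 and p52 homodimers, had 24.7, 23.8 and 37.8 CPM without SPC and 22.9, 24.0 and 30.3 CPM with it (-0.16 ± 0.18, adjusted p = 0.856 unblocked, 0.355 blocked). In both genes library 3 was the highest of its group in control and with SPC alike.

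Of the feedback inhibitors, Tnfaip3 and Tnip1 rose and Tnip3 fell in the blocked test. Tnfaip3 encodes A20, a ubiquitin-editing enzyme that shuts off the pathway, and had 117, 135 and 143 CPM without SPC and 136, 179 and 203 CPM with it. The groups overlapped, while every pair was higher with SPC, with log2 differences of 0.22, 0.41 and 0.51 (fit 0.39 ± 0.14, adjusted p = 0.367 unblocked, 0.00439 blocked). Tnip1, the gene of the A20-binding protein ABIN1 (chromosome 11, 54910785 to 54962917, minus strand), had 113, 111 and 117 CPM without SPC and 144, 136 and 154 CPM with it. Here the groups did not overlap (0.35 ± 0.07, adjusted p = 0.0813 unblocked, 0.00258 blocked). Tnip3, the related ABIN3 gene, had 5.71, 8.42 and 8.45 CPM without SPC and 3.58, 4.67 and 6.56 CPM with it. It was the 1 gene of the 35 called lower, and lower in all 3 pairs (-0.62 ± 0.24, adjusted p = 0.415 unblocked, 0.0151 blocked). Its blocked call was lost without the libraries numbered 2 in both groups. Tnip2 and the deubiquitinase gene Cyld had log2 fold changes of 0.10 ± 0.11 and -0.02 ± 0.09 and were not called in either test.

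Traf1, an adaptor that itself is induced by NF-kappaB and extends TNF receptor signals, had the largest change of the 35. It lies on chromosome 2 (34941750 to 34961772, minus strand). Traf1 had 61.1, 57.3 and 67.6 CPM without SPC and 94.3, 95.8 and 118 CPM with it, so that the lowest SPC library was well above the highest control. Its mean was 62.0 ± 5.19 CPM without and 103 ± 13.5 CPM with SPC (0.73 ± 0.11 on the log2 scale, adjusted p = 0.0360 unblocked, 6.4e-05 blocked). With 1 library left out in turn the adjusted p lay between 0.0375 and 0.199, and the call was lost without control library 1 or 2 or without SPC library 2. Ikbke, the gene of the IKK-related kinase IKKε, had 53.2, 54.1 and 63.2 CPM without SPC and 75.9, 77.2 and 79.5 CPM with it. The rise of 1.37-fold was free of overlap and passed the blocked test (0.45 ± 0.08, adjusted p = 0.0619 unblocked, 0.00175 blocked). Tank, an adaptor of IKKε and TBK1, had 50.8 to 52.7 CPM without SPC and 41.2, 52.0 and 49.7 CPM with it (-0.13 ± 0.10, adjusted p = 0.731). Traf4 and Traf5 had log2 fold changes of 0.04 ± 0.06 and -0.08 ± 0.14. For Traf4 the groups did not overlap although they differed by 1.02-fold (adjusted p = 0.910 unblocked, 0.759 blocked).

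Both target genes of the list rose in the blocked test. Icam1, an adhesion molecule gene on chromosome 9 (21015985 to 21028817, plus strand), had 42.5, 42.4 and 41.6 CPM without SPC and 54.4, 54.4 and 58.3 CPM with it. The SPC libraries were all above the controls, by 1.32-fold (0.40 ± 0.07, adjusted p = 0.0530 unblocked, 0.00422 blocked). Of its exonic bases, 11.7% lie in an exon of Gm47079 on the opposite strand. Cflar, the gene of the caspase-8 inhibitor c-FLIP, had 166, 178 and 188 CPM without SPC and 189, 242 and 276 CPM with it. The groups did not overlap, though the lowest SPC library was next to the highest control (0.41 ± 0.13, adjusted p = 0.268 unblocked, 0.00620 blocked). With 1 library left out in turn the unblocked adjusted p lay between 0.0449 and 0.711, and it was under 0.05 only without SPC library 1. In the longest Cflar transcript, 11.6% of 50-base windows are found in transcripts of other genes too.

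The 3 same-numbered pairs did not give the same picture for all genes. In the pair numbered 1, 23 of the 35 genes were higher with SPC, and in the pairs numbered 2 and 3 it was 30 and 29, against 49.3% to 50.3% of all tested genes in each pair. The difference was smallest in pair 1 for 19 of the 35 genes (40.5% of all tested genes). Of the 6 activators of the canonical part, 1 was higher in pair 1, 4 in pair 2 and 5 in pair 3. Ikbkg and Tank had differences of -0.30 and -0.35 in pair 1 and between -0.03 and 0.13 in the other 2 pairs. The genes called with the block kept their sign in all 3 pairs. The blocked test compares the same pairs, so this is no separate evidence. Being higher in all 3 pairs held for 21 of the 35 genes and lower for 2, against 21.8% and 22.0% of all tested genes. Without the libraries numbered 1, the blocked test called 21 genes higher and 1 lower, where it called 17.4% of 12135 tested genes, and 9.14% of the tested genes as higher. Without those numbered 2 or 3 it called 9 genes each time, against 5.72% and 4.58% of the genes tested (2.95% and 2.74% as higher). The 8 genes Nfkb2, Nfkbia, Traf1, Ikbke, Tnip1, Tnfaip3, Icam1 and Cflar were among the calls in each of these 3 blocked tests. Of the other 3 genes of the full blocked test, Tnip3 was lost without number 2, Relb without number 3, and Nfkbid without either.

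**Figure D4:**
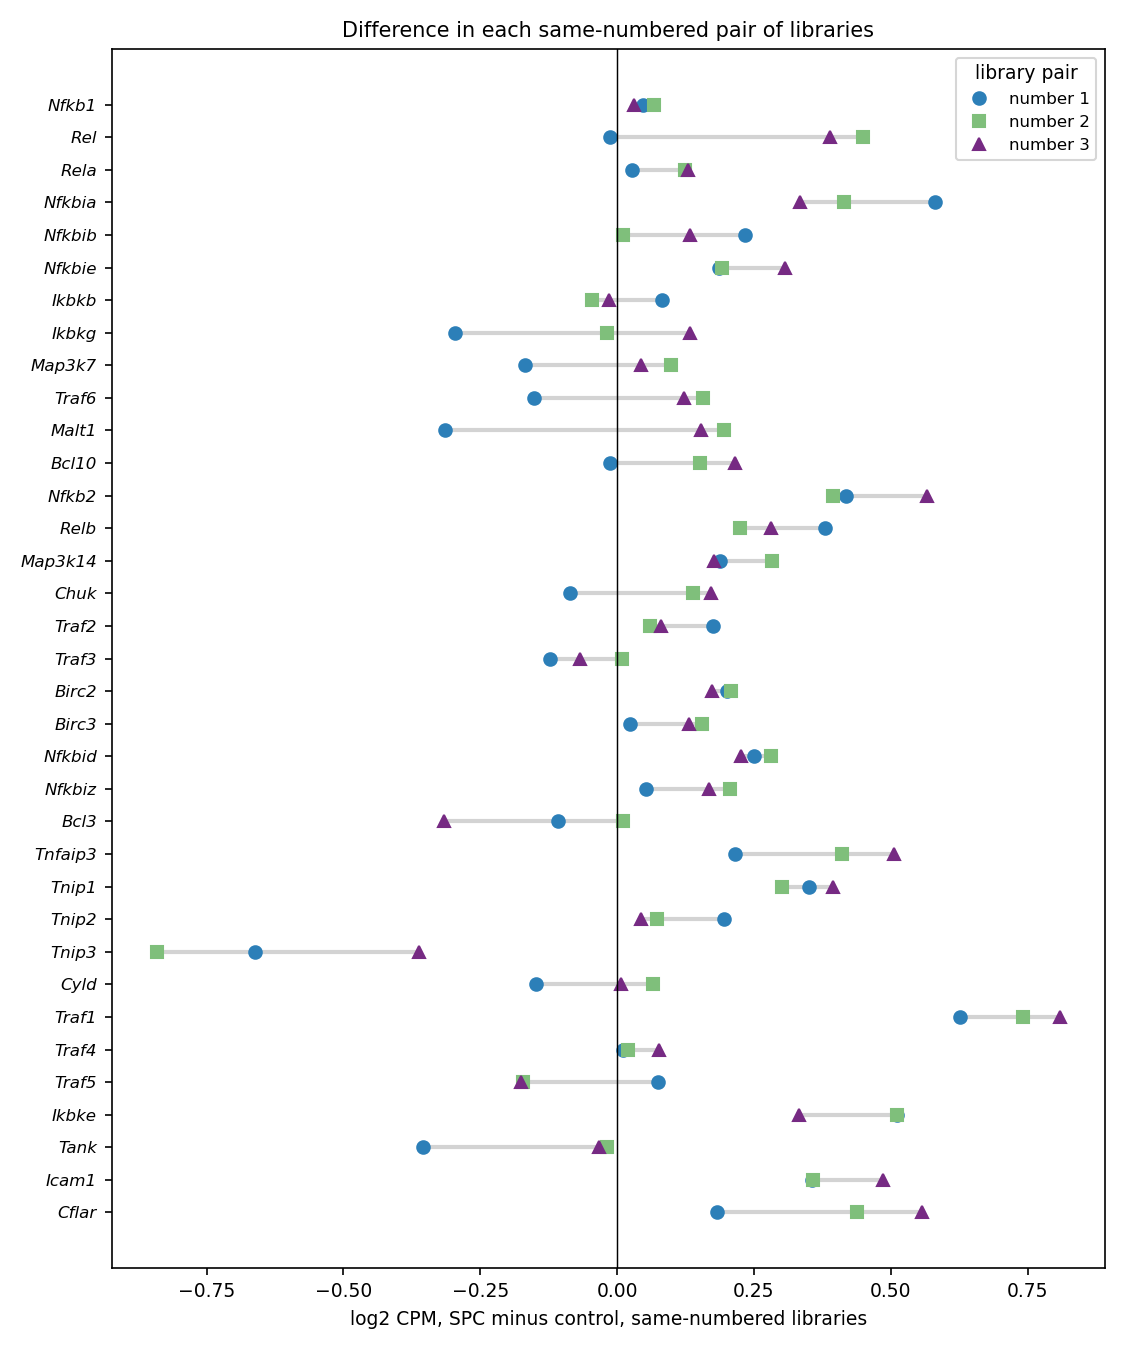
Difference in log2 CPM, SPC minus control, within each same-numbered pair of libraries (horizontal axis) for the 35 genes, with a symbol for each number. Traf1, Nfkb2, Nfkbia, Ikbke and Icam1 lie to the right of 0 in all 3 pairs, while Malt1, Traf6, Map3k7, Chuk and Cyld lie to the left of 0 in pair 1 and to the right in pairs 2 and 3.

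The rest of the pathway was read from a list of 76 other genes, 71 of which passed the filter on low counts. With group alone 3 were called higher and 1 lower, and with the block 9 higher and 7 lower, with a median log2 fold change of 0.02. Over all tested genes the shares were 0.327% and 0.155% with group alone and 4.02% and 3.07% with the block. Of the 20 upstream adaptors and kinases 1 was called with the block, Irak4, a kinase of IL-1 and Toll-like receptor signalling, which fell from 15.6 ± 0.58 to 11.8 ± 1.26 CPM (-0.40 ± 0.11, adjusted p = 0.198 unblocked, 0.0370 blocked). Of 12 other negative regulators N4bp1, a suppressor of NF-kappaB signalling, was called with the block, and it rose from 49.1 ± 2.14 to 58.4 ± 1.17 CPM (0.25 ± 0.07, adjusted p = 0.217 unblocked, 0.0415 blocked). None of the 5 genes of the IkappaB degradation machinery was called in either test.

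Of 12 tested genes of TNF family receptors that signal to NF-kappaB, 5 fell and 1 rose in the blocked test (3.07% and 4.02% of all tested genes), while the median log2 fold change of the 12 was 0.02. Tnfrsf8, which encodes CD30, had 14.6, 16.5 and 23.6 CPM without SPC and 4.89, 5.66 and 8.21 CPM with it, a fall present at nearly the same size in the 3 pairs (-1.56, -1.53 and -1.51 on the log2 scale). It was called with group alone as well (adjusted p = 0.0372 unblocked, 9.3e-06 blocked), a call that was lost without any 1 of control libraries 2 and 3 and SPC libraries 1 and 2 (up to 0.183). Tnfrsf9, the gene of 4-1BB, averaged 221 ± 72.5 CPM without SPC and 138 ± 25.2 CPM with it (-0.68 ± 0.22, adjusted p = 0.284 unblocked, 0.000465 blocked). Tnfrsf4 (OX40), Tnfrsf18 (GITR) and Cd27 were called in the blocked test alone, where their log2 fold changes were -0.29, -0.29 and -0.51 (blocked adjusted p = 0.0123, 0.0235 and 0.0239). Cd40 went the other way, from 4.27, 2.95 and 1.64 CPM in control to 8.38, 7.12 and 7.21 CPM with SPC (1.34 ± 0.28, adjusted p = 0.0869 unblocked, 0.00161 blocked). Cd40 is best known from B cells and dendritic cells, whose markers are given above.

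Among 26 other target genes, 22 were tested, and 7 rose and 1 fell in the blocked test, which called 4.02% of all tested genes higher and 3.07% lower. Cd69, an early activation antigen gene, had 24.9, 24.7 and 23.2 CPM without SPC and 44.8, 47.3 and 43.5 CPM with it (0.90 ± 0.08, adjusted p = 0.00310 unblocked, 3.9e-05 blocked). Bcl2l1, the gene of the survival protein Bcl-xL, rose from 291 ± 20.3 to 437 ± 48.7 CPM (adjusted p = 0.0434 unblocked, 7.2e-05 blocked). The lymphotoxin genes stood at 116 ± 10.2 and 168 ± 10.6 CPM for Ltb (adjusted p = 0.0441 unblocked, 0.000183 blocked) and at 364 ± 31.4 and 521 ± 52.7 CPM for Lta (adjusted p = 0.0598 unblocked, 0.000341 blocked). With group alone, the call of Ltb was lost whichever library was left out (adjusted p = 0.0503 to 0.257) and that of Bcl2l1 without any control library or SPC library 2 (up to 0.247). The call of Cd69 held without any 1 library (up to 0.0407). Cd83, Bcl2a1b and Bcl2a1d rose in the blocked test alone, by 0.49, 0.53 and 0.60 on the log2 scale, and the Bcl2a1 genes are near-identical copies between which reads can be split. Il2ra, the gene of the IL-2 receptor α chain, fell in the blocked test, from 2828 ± 131 to 2416 ± 359.9 CPM (adjusted p = 0.0344, and 0.531 without the block). Bcl2a1a, Bcl2a1c, Tnfaip2 and Cxcl10 were too low to test, as was the receptor gene Ltbr.

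**Figure D5:**
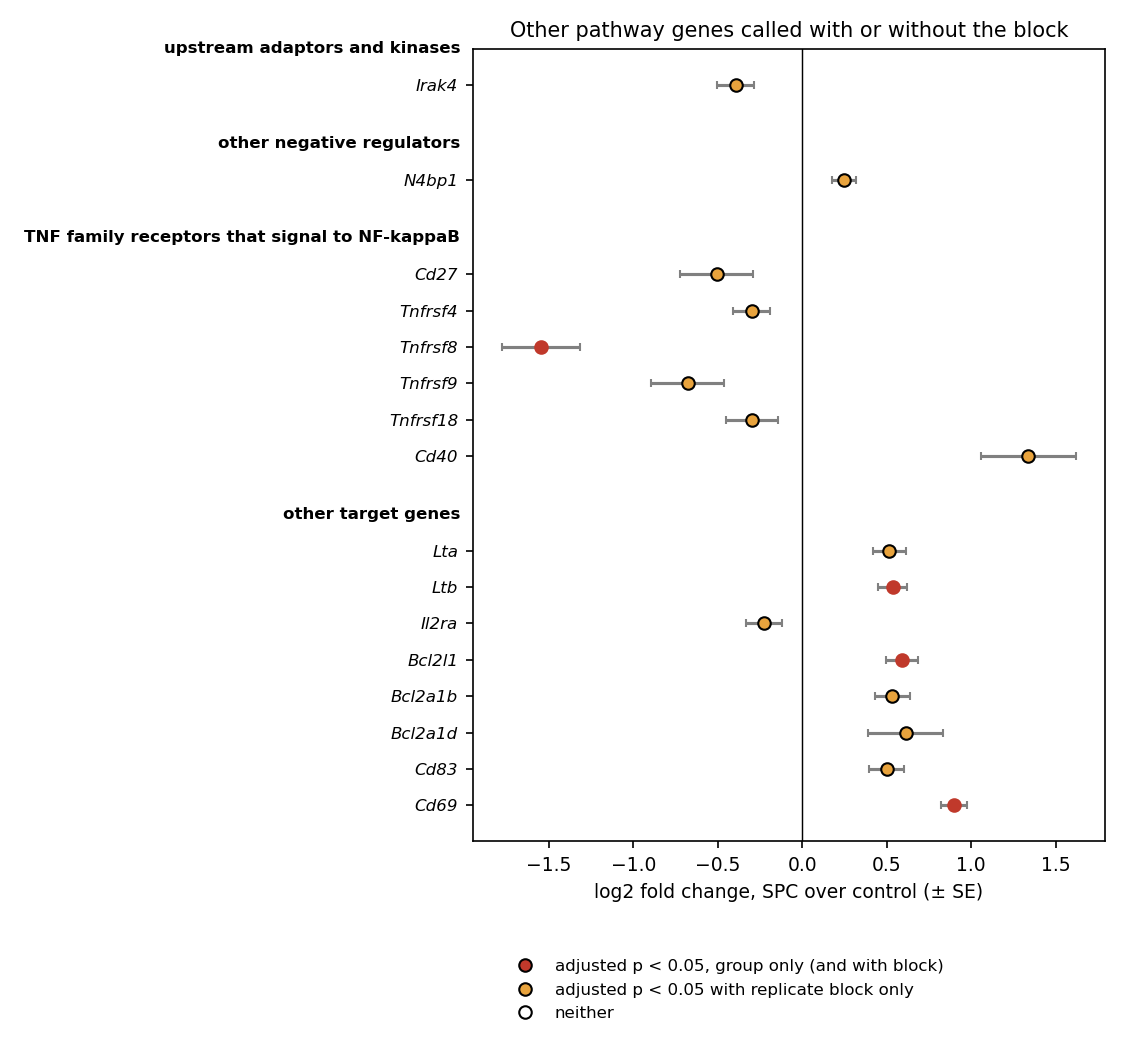
Log2 fold change of SPC over control (horizontal axis, ± SE of the edgeR fit with group alone) for the 16 other pathway genes called in either test. Of 6 receptor genes shown 5 lie below 0 and Cd40 above it, and of 8 target genes 7 lie above 0 and Il2ra below it.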

How the data were processed

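The authors deposited raw read counts per gene symbol, 23183 symbols in each of 6 libraries (3 control, 3 SPC, grouped by the sample titles), made with a kit that marks strand. TopHat and the mm10 build are named in the submitters' processing notes; for the TopHat version, the counting program, the annotation and the strand setting the entry is: not given in the sources used here. The test was the robust quasi-likelihood F test of edgeR 4.0.16 (R 4.3.3) with TMM scaling and group as the single term, run on the 12226 genes that filterByExpr retained at a minimum count of 10 and a total of at least 15. Each adjusted p called unblocked, or not named otherwise, is from this test, and one called blocked is from the fit that adds the library number as a block, with Benjamini-Hochberg adjustment over all tested genes, and a gene is called at an adjusted p under 0.05. Standard errors (SE) were taken from the F statistic, as the size of the log2 fold change over its root. Both fits were also run on simulated counts, with changes larger than those of most NF-kappaB genes here. The outcome is not reported here.

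Pairing of the library numbers was checked from deviations from the group means: over the tested genes, the correlation between control and SPC was 0.413 for number 1, 0.208 for number 2 and 0.508 for number 3. Each exceeds the limit of 0.1, and the fit with the number as a block is given beside results it changes. The check used the same libraries as the tests, and the error rate of this limit was not worked out. No 2 libraries agreed within counting noise (chi-square per degree of freedom at least 4.82). Pair differences use log2 CPM with a prior count of 2. Gene models are from GENCODE M21 and promoters from RefSeq (both GRCm38). DESeq2 1.42.0, other scaling, other filters, the block and left-out libraries were tried as alternatives. Genes named are all 35, those of the other pathway list that were called in either fit, and the 5 of that list too low to test. The genes and lists were chosen with earlier results of these data known. 1 marker gene is not reported here.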

Additional observations from a re-analysis of the deposited data

How the results depend on the processing

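With group alone 59 of all tested genes were called; DESeq2 called 282 in all, the fit with no filter on low counts 147 and the replicate block 866. For the 35 NF-kappaB genes the count of 2 became 6, 5 and 11, and for the other pathway genes the count of 4 became 8, 8 and 16. DESeq2 size factors and the stricter filter (1 CPM in 3 libraries) each left 2 of the 35 called, Nfkb2 and Traf1. Leaving out 1 library, or 1 number in both groups, gave 0 to 66 genes in all, 0 to 4 of the 35 and 0 to 3 other pathway genes. The count of 0 genes came without number 2 in both groups (edgeR, 502 at an unadjusted p under 0.05). With the replicate block and 1 number left out, a choice made after seeing the data, it gave 563 to 2112 genes, 9 to 22 of the 35 and 11 to 22 other pathway genes. Without number 1, 2 or 3 in both groups, edgeR called 15, 0 and 38 genes with group alone and 2112, 699 and 563 with the replicate block. The noncanonical median was then 0.174, 0.167 and 0.162 with group alone and 0.173, 0.167 and 0.161 with the block. Without 1 library it lay between 0.126 and 0.228, and the canonical median, 0.0720 with all libraries, between 0.0612 and 0.125, the highest without SPC library 1. Without number 1 in both groups the canonical median was 0.134.

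Of the 35 genes, 8 changed sign when libraries were left out, none of them called in a test with group alone. With the replicate block and without number 1, Malt1, Traf6 and Nfkbiz were called higher, at 0.175, 0.141 and 0.188. Their adjusted p in that blocked edgeR fit was 5.4e-05, 0.00214 and 0.0368, where 17.4% of tested genes were called. That fit holds only the pairs numbered 2 and 3, which measure the spread of a gene poorly. Without 1 library, log2 fold changes ranged from -0.0676 to 0.0444 for Map3k7, -0.0851 to 0.222 for Malt1, -0.289 to 0.0874 for Bcl3, -0.0294 to 0.0402 for Ikbkb, -0.159 to 0.0717 for Ikbkg, -0.0855 to 0.0598 for Cyld, -0.0181 to 0.163 for Traf6 and -0.0335 to 0.323 for Nfkbiz. Without number 1 in both groups, Ikbkb was at -0.0298, Ikbkg at 0.0598, Map3k7 at 0.0730 and Cyld at 0.0374 (-0.0308, 0.0553, 0.0733 and 0.0382 with the replicate block). Malt1 was at -0.0365 without number 2 and -0.0301 without number 3 (-0.0702 and -0.0600 with the block), and Traf6 at -0.00391 with the block and without number 2. The cause was not tested.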
